A study of Rattus norvegicus with 22 samples.

Results

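Gfap, Vim, Gjb6 and Maob, all genes of astrocytes, were followed in rat cortex 24 h after a penetrating ballistic-like brain injury (PBBI). They are 4 of the 32545 gene identifiers in the count table and were taken by name. Gfap (ENSRNOG00000002919) and Vim (ENSRNOG00000018087) form the intermediate filament pair. Gjb6 (ENSRNOG00000022116) and Maob (ENSRNOG00000029778) form the homeostatic pair. All 4 passed the filter on low counts in every comparison.

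Astrocytes feed neurons, clear transmitter and potassium from the space around them, and are joined into a network by gap junctions. After injury they become reactive: the cell body swells, processes thicken with intermediate filaments, and part of the program of the resting cell can be turned down. Gfap encodes glial fibrillary acidic protein, the main filament protein of mature astrocytes and the usual marker of reactivity. Vim encodes vimentin, which builds mixed filaments with GFAP in reactive astrocytes and is also made by endothelial cells, fibroblasts, microglia and blood leukocytes. Gjb6 encodes connexin 30, an astrocyte gap junction channel. Maob encodes monoamine oxidase B, an enzyme of the outer mitochondrial membrane that breaks down amines and that sits in the brain mostly in astrocytes and serotonergic neurons.

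The series holds 22 libraries from 11 adult male rats, spelled Sprague-Daley in the labels: 6 rats with PBBI and 5 with sham surgery, each sampled in the cortex of both hemispheres. PBBI was delivered to the right frontal cortex by a probe carrying a balloon that was quickly inflated, so the right side is ipsilateral and the left contralateral. Sham rats underwent the craniectomy but no probe was inserted. All rats of both groups carried EEG and EMG electrodes, which had been implanted some days earlier, so the sham group is not intact brain. Each library was made from a piece of cortex with all its cell types, and fewer cells of a type cannot be told apart from less RNA per cell. Totals ran from 42085341 to 63412426 counts per library. Rats are named by the animal numbers of the labels: 81, 83, 85, 88, 90 and 96 had PBBI, and 82, 84, 86, 91 and 94 had sham surgery. Titles of both libraries of rat 81 and of the contralateral library of rat 82 hold the letters PFC, which the other titles lack. Whether the pieces of cortex differed was not tested.

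One ipsilateral PBBI library, from rat 85, stood apart from the rest. It lay at 170.5 on the axis that held the most variance among the 11 ipsilateral libraries (58.1%), while the others lay between -58.2 and 58.6. Its mean correlation with its own group was 0.732, against 0.887 to 0.909 for the other PBBI rats. Its TMM normalization factor was 0.706, while the other 21 libraries had factors from 0.889 to 1.21. Results that change without it are given with and without it.

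The stretch of 250 bases before the annotated start of each gene is shown to place the 4 genes side by side. The sequences are from RefSeq on build GRCr8, whereas the counts were made on Rnor 6.0. Each is written 5′ to 3′ on the strand of the gene, and capitals mark matches on either strand to the motifs searched. These were the TATA box (TATAAA), the CCAAT box (CCAAT), the GC box (GGGCGG), the AP-1 motif (TGANTCA) and the STAT motif with 3 or 4 bases between its arms (TTCNNNGAA and TTCNNNNGAA, where N is any base). Gfap lies on the minus strand at chr10:88361662-88361911, Vim on the plus strand at chr17:81577011-81577260, Gjb6 on the minus strand at chr15:35410139-35410388 and Maob on the plus strand at chrX:8490155-8490404. Gjb6 has 2 annotated starts, of which the first is shown.
Gfap: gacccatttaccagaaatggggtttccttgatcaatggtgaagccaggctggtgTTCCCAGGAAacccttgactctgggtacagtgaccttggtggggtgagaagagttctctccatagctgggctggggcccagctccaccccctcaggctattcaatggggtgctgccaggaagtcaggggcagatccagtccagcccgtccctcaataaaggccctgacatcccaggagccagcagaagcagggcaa
Vim: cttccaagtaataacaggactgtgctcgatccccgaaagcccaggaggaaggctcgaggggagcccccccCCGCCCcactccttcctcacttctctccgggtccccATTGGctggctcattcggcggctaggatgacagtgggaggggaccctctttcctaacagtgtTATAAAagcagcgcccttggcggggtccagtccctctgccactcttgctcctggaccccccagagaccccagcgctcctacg
Gjb6: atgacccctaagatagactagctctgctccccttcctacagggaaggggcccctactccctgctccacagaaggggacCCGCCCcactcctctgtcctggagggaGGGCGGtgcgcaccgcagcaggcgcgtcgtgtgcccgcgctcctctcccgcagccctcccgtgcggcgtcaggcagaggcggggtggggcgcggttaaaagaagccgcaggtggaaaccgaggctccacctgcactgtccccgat
Maob: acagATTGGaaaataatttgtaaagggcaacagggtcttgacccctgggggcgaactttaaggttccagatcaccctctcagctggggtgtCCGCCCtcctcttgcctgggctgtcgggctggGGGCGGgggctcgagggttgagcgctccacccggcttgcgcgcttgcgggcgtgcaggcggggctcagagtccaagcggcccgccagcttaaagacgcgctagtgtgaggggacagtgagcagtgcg

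The Gfap stretch held 1 match to the STAT motif with 4 bases between, which 6.25% of 33469 rat promoter stretches of this length also hold. Vim held 1 match each to the TATA box, the CCAAT box and the GC box, which occur in 12.9%, 34.0% and 30.5% of the stretches. Gjb6 and Maob each held 2 matches to the GC box, and Maob held 1 to the CCAAT box. Neither the AP-1 motif (6.34% of the stretches) nor the STAT motif with 3 bases between (7.67%) was found in any of the 4. The stretch before the second annotated start of Gjb6, at chr15:35408963-35409212, held 1 match to the GC box and 1 to the STAT motif with 4 bases between. G and C made up 57.6% of the bases for Gfap, 62.4% for Vim, 68% for Gjb6 and 63.6% for Maob, against a median of 51.2% over all stretches.

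In sham cortex Gfap had the highest and Gjb6 the lowest mean level of the 4 genes. Levels between genes are compared per length, as TPM (transcripts scaled to a fixed sum per library) computed from the counts and the gene model lengths. Gfap was the highest, at 412 ± 243 TPM contralaterally and 313 ± 153 TPM ipsilaterally (SD, n = 5). Maob had 87.4 ± 13.0 and 76.4 ± 15.4 TPM, Vim 65.1 ± 22.5 and 53.1 ± 14.1 TPM, and Gjb6 33.6 ± 7.95 and 35.1 ± 9.22 TPM. The ranges of Maob and Vim overlapped on both sides, so these neighbours in the order did not separate beyond the spread over rats, although Maob was above Vim within each of the sham libraries. The range of Gfap lay above all the others. Vim and Gjb6 separated contralaterally but overlapped ipsilaterally: the lowest Vim level was 45.2 TPM contralaterally and 37.0 TPM ipsilaterally, and the highest Gjb6 level was 43.5 and 48.2 TPM. In ipsilateral PBBI cortex the order was Gfap, with 3081 ± 1915 TPM (SD, n = 6), then Vim with 487 ± 232, Maob with 53.2 ± 20.6 and Gjb6 with 14.3 ± 14.7 TPM. Over the 6 rats the range of Gfap (536 to 5141 TPM) overlapped that of Vim (167 to 733 TPM), and the range of Maob overlapped that of Gjb6, while Vim and Maob did not overlap. Vim stood above Maob in all 6 rats: the ratio of their TPM values ran from 2.68 to 15.1, against 0.586 to 0.784 in the 5 ipsilateral sham libraries.

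Whether the injury changed these genes on its own side was asked by comparing ipsilateral PBBI with ipsilateral sham cortex. Both filament genes rose, Gfap 7.93-fold (95% interval 4.04 to 15.6) and Vim 7.43-fold (4.58 to 12.0). Both homeostatic genes had lower fitted levels, Gjb6 at 0.347 of the sham level (0.162 to 0.743) and Maob at 0.593 (0.427 to 0.823), but neither passed the test. All 4 genes are in the list of genes that the study called in these same ipsilateral samples, so their direction here is not independent evidence.

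Within a gene, levels are given as CPM, the counts relative to the library total after TMM scaling. Gfap in ipsilateral sham cortex measured 380, 568, 341, 696 and 891 CPM in rats 82, 84, 86, 91 and 94. In ipsilateral PBBI cortex it measured 3170, 2630, 1815, 6175, 6831 and 6760 CPM in rats 81, 83, 85, 88, 90 and 96. The groups did not overlap, and the lowest PBBI value, that of rat 85, was well above the highest sham value. In rats 88, 90 and 96 Gfap alone took 0.730% to 0.817% of all counts, and it ranked between 14 and 16 among all genes by TPM. Its log2 fold change was 2.99 (SE 0.449, adjusted p = 0.00407, edgeR quasi-likelihood test with Benjamini-Hochberg adjustment). Of the 16104 genes tested, 211 had a higher fold change.

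Vim measured 48.2, 86.5, 75.3, 52.0 and 90.7 CPM in the ipsilateral cortex of sham rats 82, 84, 86, 91 and 94. It measured 618, 248, 392, 717, 538 and 632 CPM in PBBI rats 81, 83, 85, 88, 90 and 96. The groups again did not overlap, and the lowest PBBI level was that of rat 83. The log2 fold change was 2.89 (SE 0.322, adjusted p = 0.00132, edgeR), and 7 genes had a smaller p. All 6 PBBI libraries lay above all 5 sham libraries for Gfap and Vim, as they did for 3.42% of 16587 genes. Exact permutation of the treatment over the 11 rats gave p = 0.00216 for Gfap and for Vim (two-sided), the smallest p that the splits of 11 rats can give.

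Gjb6 measured 61.0, 50.3, 34.5, 39.1 and 38.6 CPM in ipsilateral sham cortex (rats 82, 84, 86, 91 and 94). In PBBI rats 81, 83, 85, 88, 90 and 96 it measured 8.79, 45.1, 11.1, 4.13, 7.56 and 16.4 CPM. In 5 of the 6 PBBI rats Gjb6 lay below every sham rat, rat 88 by far the lowest, while rat 83 lay within the sham range. The log2 fold change was -1.53 (SE 0.507, adjusted p = 0.120, edgeR), and 108 of 16104 genes had a lower one. Without rat 83 it was -2.22 (adjusted p = 0.00394, edgeR), in a fit where 1158 of 15979 genes passed.

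Maob measured 109, 149, 135, 120 and 164 CPM in the ipsilateral cortex of sham rats 82, 84, 86, 91 and 94. It measured 57.7, 125, 81.7, 64.1, 79.0 and 74.2 CPM in PBBI rats 81, 83, 85, 88, 90 and 96. As with Gjb6, 5 PBBI rats lay below all sham rats and rat 83 lay among them. The log2 fold change was -0.75 (SE 0.219, adjusted p = 0.0755, edgeR). Without rat 83 it was -0.92 (adjusted p = 0.0145), and without rat 85 it was -0.76 (adjusted p = 0.0435, edgeR). These fits passed 1158 of 15979 and 2186 of 15978 genes. The place of rat 85 changed with the scaling: as a share of raw counts its Maob was the lowest of all ipsilateral libraries, at 0.00577%, whereas after TMM it was the second highest of the PBBI rats.

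In all, 2 of the 4 members passed at an adjusted p of 0.05 in the ipsilateral comparison, where 4.68% of the 16104 genes tested passed (4.09% higher and 0.584% lower). Gfap and Vim passed in all 11 fits that left out 1 rat, Gjb6 in 1 and Maob in 2. DESeq2 with and without its prior, voom with sample quality weights and edgeR on all 22 libraries in the same fit also passed Gjb6 (adjusted p = 0.00113 to 0.0350) and Maob (adjusted p = 0.00176 to 0.0161). These fits passed more genes than the 753 of the edgeR fit of the ipsilateral libraries. They passed 1628 and 1639 of 16104 genes in DESeq2 with and without its prior, and 5014 in voom. With all 22 libraries, where the 2 libraries of a rat were treated as independent, 1655 of 16587 passed. In the edgeR fit of the ipsilateral libraries all 4 members had an unadjusted p under 0.05, as did 16.9% of the genes. The exact permutation test gave unadjusted p = 0.0130 for Gjb6 and p = 0.00866 for Maob (two-sided). No gene of the homeostatic pair had all 6 PBBI rats below all 5 sham rats, as 1.21% of genes did.

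**Figure D1:**
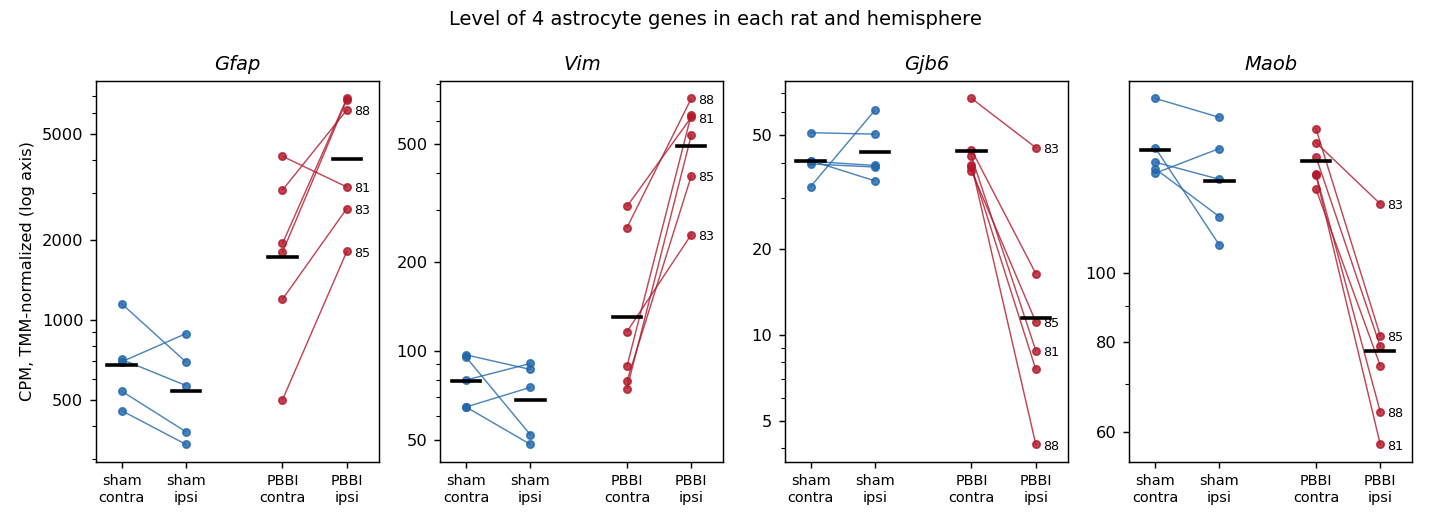
Level of Gfap, Vim, Gjb6 and Maob in CPM scaled by TMM (log axis) in each rat; a line joins the contralateral and ipsilateral library of the same rat, blue for the 5 sham and red for the 6 PBBI rats, black bars are geometric means, and numbers name rats 81, 83, 85 and 88. Red lines rise for Vim in all 6 rats and for Gfap in all but rat 81, and fall for Gjb6 and Maob in all 6, with rat 83 ending within the sham range for both.

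The contralateral hemisphere shows whether the genes also differed away from the probe track. Gfap had a fitted level 2.97-fold that of contralateral sham cortex (95% interval 1.53 to 5.76) and Vim 1.93-fold (1.10 to 3.42). Gjb6 (1.09-fold, 0.836 to 1.42) and Maob (0.962-fold, 0.793 to 1.17) lay close to the sham level, with intervals that span 1. None of the 4 passed after adjustment, and none of the 15907 genes tested did (0.00%), while 366 had an unadjusted p under 0.05 (2.30%, edgeR). DESeq2 without its prior called 3 genes, DESeq2 with it 0 and voom 1, none of them among the 4. All 6 PBBI rats lay above all 5 sham rats for 0.121% of genes and below them for 0.0844%, and for none of the 4.

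Contralateral Gfap measured 541, 712, 457, 1154 and 697 CPM in sham rats 82, 84, 86, 91 and 94. It measured 4135, 1199, 502, 3087, 1943 and 1802 CPM in PBBI rats 81, 83, 85, 88, 90 and 96. Gfap in 5 PBBI rats lay above every sham rat, although rat 83 only just exceeded sham rat 91, and rat 85 lay within the sham range. The log2 fold change was 1.57 (SE 0.444, unadjusted p = 0.00339, adjusted p = 1.00, edgeR), and 19 genes had a smaller p. By exact permutation p was 0.0325 (two-sided, unadjusted). Without rat 85 the log2 fold change was 1.78 (unadjusted p = 0.000212, adjusted p = 0.823, edgeR), and no gene had a smaller p.

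Contralateral Vim measured 64.5, 96.9, 64.6, 95.2 and 79.7 CPM in sham rats 82, 84, 86, 91 and 94. It measured 309, 116, 79.1, 262, 74.6 and 88.8 CPM in PBBI rats 81, 83, 85, 88, 90 and 96. Rats 81 and 88 stood well above the rest, and 3 of the PBBI rats lay within the sham range. The exact permutation p was 0.145. Rats 81 and 88 were also the highest for contralateral Gfap, whereas rats 90 and 96 had raised Gfap values with Vim at the sham level: their ratio of Gfap to Vim was 18.0 and 14.0 per length, against 4.89 to 8.37 in contralateral sham cortex.

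Contralateral Gjb6 ranged from 33.0 to 50.9 CPM in sham rats (median 40.4) and from 37.5 to 67.1 CPM in PBBI rats (median 40.7), and rat 83 alone lay above the sham range. Contralateral Maob was the steadiest of the members, at 137 to 175 CPM in sham rats (median 142) and 131 to 159 CPM in PBBI rats (median 141). Its coefficient of variation was 10.2% and 7.29% in these groups. The exact permutation p was 0.578 for Gjb6 and 0.524 for Maob.

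Whether the effect of PBBI differed between hemispheres was tested as an interaction over the 22 libraries. The filament genes had a larger fitted effect on the ipsilateral side, by 1.42 for Gfap (SE 0.619, adjusted p = 0.424, edgeR) and 1.94 for Vim (SE 0.501, adjusted p = 0.101) on the log2 scale. The homeostatic genes had a lower one, by -1.66 for Gjb6 (SE 0.563, adjusted p = 0.232) and -0.70 for Maob (SE 0.238, adjusted p = 0.232). None of the 4 passed here, where 0.326% of 16587 genes did (0.307% higher and 0.0181% lower), while all 4 had an unadjusted p under 0.05, as did 9.89% of genes. Calls changed without 1 rat: without rat 83 Vim (2.02, adjusted p = 0.0484), Gjb6 (-2.20, adjusted p = 0.00610) and Maob (-0.85, adjusted p = 0.0390) passed, and without rat 81 Vim passed (2.21, adjusted p = 0.0414, all edgeR). More genes passed in these fits too, 255 of 16534 without rat 83 and 98 of 16459 without rat 81. These tests use the ipsilateral PBBI libraries in which the study called all 4 genes, so they are not independent evidence of direction either. The 2 libraries of a rat come from the same animal, and with the rat as a block all 4 passed, where 4.27% of the genes did (2.95% higher and 1.32% lower). The blocked log2 differences were 1.57 for Gfap (SE 0.389, adjusted p = 0.0411), 2.13 for Vim (SE 0.381, adjusted p = 0.0128), -2.04 for Gjb6 (SE 0.396, adjusted p = 0.0177) and -0.73 for Maob (SE 0.181, adjusted p = 0.0409, all edgeR). Without rat 85 the blocked adjusted p ran from 0.0112 to 0.0390, in a fit where 1358 of 16505 genes passed.

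The same difference can be read rat by rat, as the log2 level of the ipsilateral minus that of the contralateral library. Vim had differences of 1.00, 1.09, 2.31, 1.45, 2.85 and 2.83 in PBBI rats 81, 83, 85, 88, 90 and 96 and of -0.42, -0.16, 0.22, -0.87 and 0.19 in sham rats 82, 84, 86, 91 and 94. Every PBBI rat lay above every sham rat, as for 3.42% of 16587 genes. Gjb6 had differences of -2.25, -0.57, -1.76, -3.24, -2.35 and -1.44 in the PBBI rats and of 0.89, -0.02, -0.24, -0.05 and -0.04 in the sham rats. Here every PBBI rat lay below every sham rat, as for 2.06% of genes, and rat 83 had the smallest fall.

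Maob had differences of -1.24, -0.28, -0.96, -1.10, -0.88 and -0.82 in PBBI rats 81, 83, 85, 88, 90 and 96, and of -0.45, 0.11, -0.08, -0.22 and -0.09 in sham rats 82, 84, 86, 91 and 94. Only rat 83 reached into the sham range. Gfap had differences of -0.38, 1.13, 1.85, 1.00, 1.81 and 1.91 in the PBBI rats and of -0.51, -0.33, -0.42, -0.73 and 0.35 in the sham rats. Rat 81 was the only PBBI rat with less Gfap on the injured side, 3170 against 4135 CPM. Mean differences of PBBI minus sham rats were 1.55 for Gfap (exact permutation p = 0.0130), 2.13 for Vim (p = 0.00216, the smallest possible), -2.04 for Gjb6 (p = 0.00433) and -0.73 for Maob (p = 0.00649), all two-sided and unadjusted.

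Within the 6 PBBI rats, Vim was higher and Gjb6 and Maob were lower on the injured side in every rat. Gfap was higher there in all but rat 81. The calls depended on whether the rat was a block. The ipsilateral libraries used here are among those in which the study called all 4 genes, so the directions are again not independent evidence. Without the block Vim had a log2 fold change of 1.77 (SE 0.411, adjusted p = 0.0346) and Maob of -0.83 (SE 0.185, adjusted p = 0.0291). Gfap (1.12, SE 0.479, adjusted p = 0.244) and Gjb6 (-1.53, SE 0.469, adjusted p = 0.0932, all edgeR) did not pass in that fit. In this comparison 3.56% of 15973 genes passed (2.97% higher and 0.588% lower), and 17.0% had an unadjusted p under 0.05, as did all 4 members. With the rat as a block all 4 passed, where 10.3% of genes did (6.68% higher and 3.62% lower), with Gfap at 1.25 (SE 0.323, adjusted p = 0.0457) and Gjb6 at -1.92 (SE 0.324, adjusted p = 0.0152, edgeR). Vim and Maob lost the call in some fits without 1 rat: Vim without rats 88, 90 or 96 and Maob without rats 81, 88, 90 or 96. Vim was higher in 6 of 6 rats, as were 10.6% of 16587 genes, and Gjb6 and Maob were lower in 6 of 6, as were 11.4%. Exact sign flips gave p = 0.03125 for each of these 3, the smallest that 6 rats allow, and p = 0.0625 for Gfap.

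Within the 5 sham rats none of the 4 passed, nor did any of the 15747 genes tested (0.00%; 47 or 0.298% at an unadjusted p under 0.05, and none adjusted in DESeq2 or voom), and the block changed no call. The log2 fold changes of ipsilateral over contralateral cortex were -0.31 for Gfap (95% interval -0.99 to 0.38), -0.18 for Vim (-0.67 to 0.31), 0.12 for Gjb6 (-0.29 to 0.54) and -0.13 for Maob (-0.49 to 0.23). No member moved the same way in all 5 sham rats, as 1.81% of genes did upward and 2.29% downward. Exact sign flips over 5 rats cannot go below p = 0.0625.

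**Figure D2:**
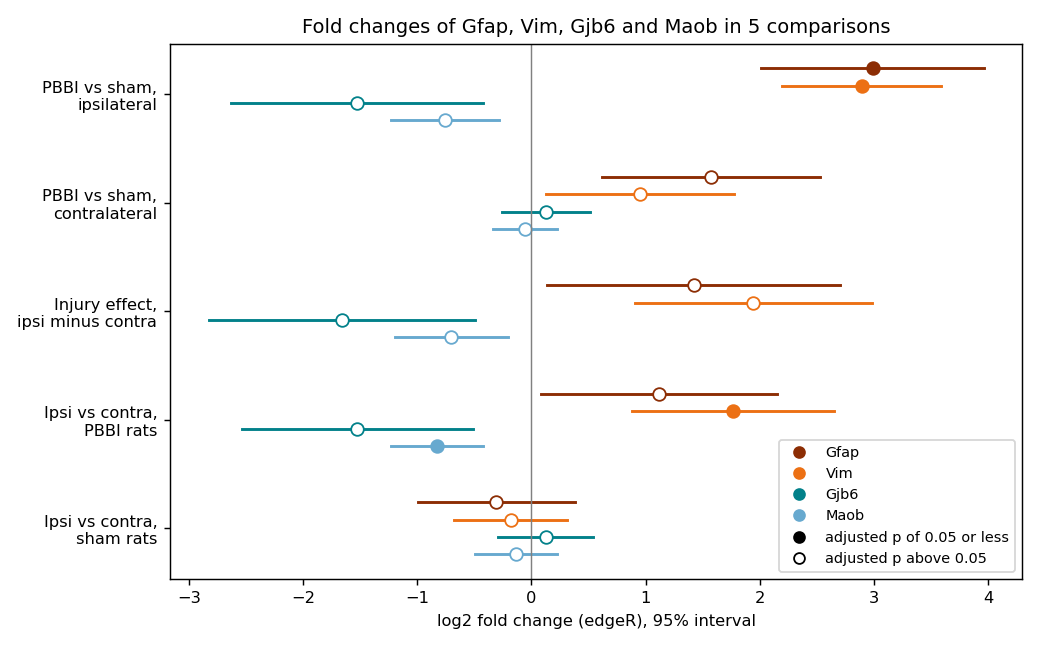
Log2 fold changes from edgeR (x axis) with 95% intervals (lines) for the 4 genes in 5 comparisons without the rat as a block; filled points passed at an adjusted p of 0.05 and open points did not. Gfap and Vim lie at 2.99 and 2.89 in the ipsilateral comparison and nearer 0 contralaterally, Gjb6 and Maob lie below 0 ipsilaterally and at 0.13 and -0.056 contralaterally, and all 4 sham intervals span 0.

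The contrast of the pairs was read in each library as the mean log2 CPM of Gfap and Vim minus that of Gjb6 and Maob. It ran from 0.73 to 1.83 in ipsilateral sham cortex (median 1.36) and from 1.17 to 2.14 in contralateral sham cortex (median 1.50). In contralateral PBBI cortex it measured 3.90, 1.89, 1.37, 3.61, 2.35 and 2.39 in rats 81, 83, 85, 88, 90 and 96, and in ipsilateral PBBI cortex 5.95, 3.43, 4.81, 7.01, 6.29 and 5.89. Every ipsilateral PBBI library lay above all sham libraries, and rat 83 was the lowest of them. Contralaterally rats 81 and 88 lay far above the sham range, rats 90 and 96 just above it, and rats 83 and 85 within it. The pairs were chosen with their directions known, so the contrast is a description. Gfap exceeded Gjb6 per length by 4.18 to 15.5 times in ipsilateral sham cortex and by 39.1 (rat 83) to 1003 times (rat 88) in ipsilateral PBBI cortex.

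**Figure D3:**
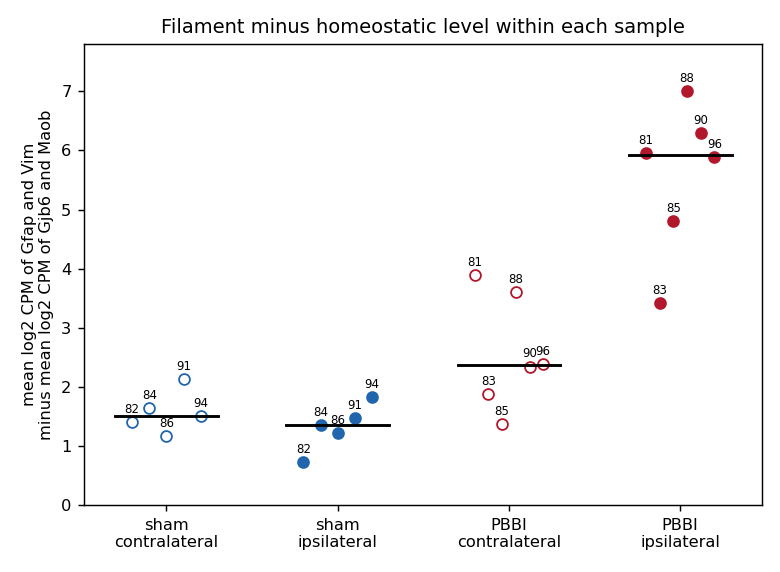
Mean log2 CPM of Gfap and Vim minus mean log2 CPM of Gjb6 and Maob (y axis) in each of the 22 libraries by group, with rat numbers beside the points and the group median as a line. The medians are 1.50 and 1.36 in sham cortex, 2.37 in contralateral and 5.92 in ipsilateral PBBI cortex, and contralateral rats 81 and 88 lie at 3.90 and 3.61.

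Among the 6 ipsilateral PBBI libraries the members did not form pairs that held after adjustment over the 6 pairs. The closest was Vim with Maob (Pearson's r = -0.92, exact permutation p = 0.0111, adjusted 0.0667; Spearman's rho = -0.83, exact p = 0.0583, adjusted 0.35). Without rats 83 and 85, the farthest from the median of Vim, r was -0.56. Leaving out extremes also narrows the range, so this cannot tell whether the relation rests on those rats. Vim with Gjb6 had r = -0.82 (exact permutation p = 0.0486, adjusted 0.103; rho = -0.60, exact p = 0.242, adjusted 0.446), and r = -0.38 without rats 83 and 85. Gjb6 with Maob had r = 0.83 (exact permutation p = 0.0514, adjusted 0.103; rho = 0.60, exact p = 0.242, adjusted 0.446), and r = 0.18 without rats 83 and 88. Gfap and Vim had r = 0.67 (exact p = 0.140, adjusted 0.210; rho = 0.54, exact p = 0.297, adjusted 0.446), and r = -0.068 without rats 85 and 83.

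Other genes of the reactive astrocyte program were taken from a list of 38, of which 28 could be paired with an identifier. The names come from the study's own tables, mostly of genes it called in the ipsilateral samples. The listed genes are therefore not independent evidence of direction in any comparison that uses the ipsilateral PBBI libraries. Their counts and medians there are a description, since the naming favours genes that were called. In the ipsilateral comparison all 28 lay above 0 and 20 passed, while 4.09% of the 16104 genes tested passed as higher. The median log2 fold change was 2.76, against -0.019 over all genes tested. Hspb1, a small heat shock protein, had the highest value (6.77, SE 0.674, adjusted p = 0.000940), followed by Ptx3, a secreted pentraxin of innate immunity (5.53, SE 0.685, adjusted p = 0.00164, edgeR). The lowest were Tm4sf1 (0.91, adjusted p = 0.0558) and Fbln5, an elastic fibre protein (1.17, adjusted p = 0.0511), which did not pass.

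Contralaterally 0 of 27 reactive genes passed in edgeR, DESeq2 or voom, while 10 had an unadjusted p under 0.05 in edgeR and 23 lay above 0, with a median of 0.49 against -0.0059 over all genes. Hspb1 had 3.05 (SE 0.896) and Ptx3 2.20 (SE 0.678) there, whereas Tm4sf1 had 0.10 and Fbln5 -0.35. In the difference between hemispheres 5 of 28 passed, all higher ipsilaterally, and 17 of 28 with the rat as a block. Without 1 rat that count was 11 without PBBI rat 81 or 83, 7 without rat 85, 1 without sham rat 91 and 0 without any other. Within PBBI rats all 28 lay above 0, and 14 passed as higher on the injured side. With the block 22 of 28 passed. In the fit with no block the 14 became 21 without rat 85, 4 without rat 90 and 0 without rats 88 or 96. Within sham rats 0 of 27 passed (0 at an unadjusted p under 0.05, and 0 in DESeq2 or voom), with a median of 0.052.

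Homeostatic astrocyte genes were taken from a list of 42, of which 17 could be paired, with the same limit on names. Genes central to the list, such as the glutamate transporters and aquaporin 4, had no name in the study's tables and were not analysed here. The 17 are therefore weighted toward genes that the study called, and their counts and medians do not describe the whole list. Ipsilaterally 8 of the 17 fell, 2 rose and 7 did not pass, with a median log2 fold change of -0.96. Fold changes lay below 0 for 14 and above 0 for 3. Over all genes tested 0.584% passed as lower and 4.09% as higher. The lowest were Ttpa, a vitamin E transfer protein (-2.05, SE 0.412, adjusted p = 0.0158), and Prodh, the mitochondrial proline dehydrogenase (-1.66, SE 0.256, adjusted p = 0.00480, edgeR). Gjb6 at -1.53 lay close to Prodh, whereas Maob at -0.75 lay nearer to 0 than the list median. The highest were Papss2, an enzyme of sulfate activation (1.53, SE 0.482, adjusted p = 0.103), and Slc14a1, a urea transporter (1.01, SE 0.240, adjusted p = 0.0328). The 2 that rose were Slc14a1 and F3, tissue factor, which starts blood clotting (0.76, adjusted p = 0.0328); F3 is named after its value was seen. Without rat 83 the counts were 10 lower and 3 higher, and without rat 85 they were 11 and 3. Without any other single rat, sham rats included, 2 to 6 were lower and 0 or 1 higher.

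Contralaterally 0 of the 17 passed in edgeR, DESeq2 or voom (1 at an unadjusted p under 0.05 in edgeR), with a median of 0.049. Ttpa had -0.059, Prodh -0.15, Papss2 0.25 and Slc14a1 0.53 there. In the difference between hemispheres 1 of 17 passed, Prodh (-1.51, SE 0.298, adjusted p = 0.0345, edgeR), and 9 of 17 with the rat as a block, all lower ipsilaterally. That count was 8 without rat 83, 1 without rats 81 or 85, and 0 without any other. Within PBBI rats 14 of 17 lay below 0, and 11 passed as lower on the injured side. With the block 13 passed. In the fit with no block the 11 became 5 without rat 81, 2 without rat 90 and 0 without rats 88 or 96. Within sham rats 0 of 17 passed (0 at an unadjusted p under 0.05, and 0 in DESeq2 or voom), with a median of -0.13.

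**Figure D4:**
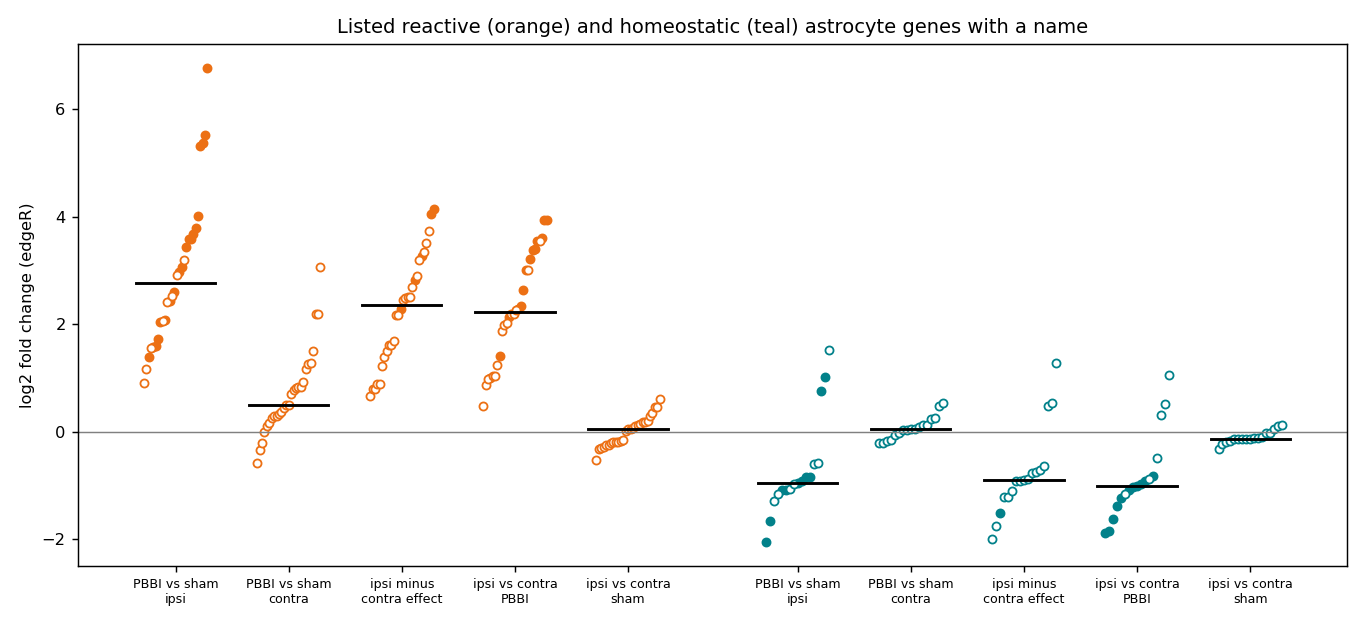
Log2 fold changes from edgeR (y axis) of the named genes of the reactive list (orange, 27 or 28 genes) and the homeostatic list (teal, 17 genes) in 5 comparisons, sorted by value within each column; filled points passed at an adjusted p of 0.05 and black lines are medians. The reactive genes have medians of 2.76 ipsilaterally and 0.49 contralaterally, and the homeostatic genes of -0.96 and 0.049.

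The gene families of the members were thinly covered, with the same limit on names. Of 12 other intermediate filament genes, 2 could be paired, and neither passed ipsilaterally: Des, the muscle filament desmin (1.89, adjusted p = 0.171), and Lmna, nuclear lamin A/C (1.18, adjusted p = 0.0739). Of 11 other connexins and pannexins, 2 could be paired: Gja5, connexin 40 of arterial endothelium, rose by 1.74 (SE 0.352, adjusted p = 0.0164, edgeR), opposite to Gjb6, and Panx1 had 1.05 (adjusted p = 0.167). Of 6 other genes of monoamine breakdown, only Aldh1a1 could be paired (-1.03, adjusted p = 0.129). None of the 5 passed contralaterally in edgeR. Within PBBI rats the 2 filament genes and the 2 channel genes lay above 0, and 1 of each passed as higher on the injured side.

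Some markers of other cell types also differed in the ipsilateral comparison. Their names come from the study's own tables, mostly of genes it called in these ipsilateral samples. The markers that could be paired are therefore not independent evidence of direction. Of 10 microglia and macrophage markers 5 could be paired: Itgam, Tmem119, Ptprc, Tyrobp and Lyz2. Sums of CPM here and below are without TMM scaling. The sum of these 5 was 133 to 322 in ipsilateral sham and 300 to 1114 in ipsilateral PBBI cortex, against 161 to 234 and 205 to 307 contralaterally. Itgam (2.58, adjusted p = 0.00833) and Ptprc (1.98, adjusted p = 0.00551) rose, while Lyz2 had 1.62 (adjusted p = 0.0677), Tyrobp 1.62 (adjusted p = 0.158) and Tmem119 -0.92 (adjusted p = 0.0799, edgeR). The neutrophil markers that could be paired, 4 of 5, summed to 2.83 to 44.9 CPM in ipsilateral sham and 5.31 to 178 CPM in ipsilateral PBBI cortex, and to 2.36 to 36.2 and 1.88 to 47.6 CPM contralaterally, and Elane, 1 of the 4, was at 0 in every ipsilateral sham library. Neither of the 2 tested passed (S100a8 3.07, adjusted p = 0.143; S100a9 2.34, adjusted p = 0.269).

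Vwf, the endothelial marker that could be paired of 6, rose by 1.24 (adjusted p = 0.0112, edgeR). Without TMM scaling it ran from 9.64 to 18.1 CPM in ipsilateral sham and from 22.9 to 53.8 CPM in ipsilateral PBBI cortex. Rgs5 and Des, 2 of 9 mural and fibroblast markers, summed to 18.4 to 30.5 and 25.0 to 37.6 CPM, and Rgs5 had -0.79 (adjusted p = 0.316). Opalin, 1 of 5 oligodendrocyte markers, had -0.94 (adjusted p = 0.110), and none of 5 neuron markers could be paired. Vim is also made by several of these cells. The part of other cell types in its rise was not tested.

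The genes most like each member within groups were sought among 1075 named genes whose mean log2 CPM was 1 or more. Likeness is Pearson's r over the 22 libraries after the mean of each group was subtracted, and libraries share rats and scaling, so it is a description. Those most like Gfap were Arhgef40 (0.912) and Ssc5d (0.895), and those most like Vim were Tubb6, a tubulin (0.954), Lgals3, galectin 3 (0.915), and Hspb1 (0.873). Those most like Gjb6 were Slco1c1, a thyroid hormone transporter (0.914), Egflam (0.858) and Pdgfd (0.844). Those most like Maob were Fads6 (0.791), Klf15 (0.784) and Pamr1 (0.760). For Gjb6 and Maob the likeness leaned on rat 83, without which Slco1c1 fell to 0.743 and Pamr1 to 0.559. Between members, r was 0.683 for Gfap with Vim and 0.578 for Gjb6 with Maob, and from -0.387 to -0.207 for the 4 pairs across.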

How the data were processed

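RNA from the cortex of both hemispheres of 11 rats was measured by RNA-seq. The authors depleted ribosomal RNA, made stranded libraries, sequenced paired reads of 50 bases, aligned them to Rnor 6.0 with STAR 2.4.2a and counted them with featureCounts 1.4.3-p1, per the labels and the study's methods. The deposited table holds raw counts per gene, not normalized by the authors. How strand and reads with several places were counted is not given in the sources used here.

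Groups and animal numbers came from the sample labels. Gene names came only from the study's tables, which pair 1822 of 32545 identifiers. Their columns of fold changes and p-values were not used. The 4 members and the lists were chosen with earlier results of these data known.

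Genes were tested by edgeR 4.0.16 (quasi-likelihood, R 4.3.3) with TMM, filterByExpr and Benjamini-Hochberg adjustment over all genes tested, with a threshold of 0.05. Each hemisphere was fitted on its own, and the hemispheres were compared over all 22 libraries or within each treatment. DESeq2 1.42.0, limma 3.58.1 (voom), other scalings and filters, the rat as a block and leaving out each rat were alternatives. Levels of the members are CPM scaled by TMM over 22 libraries, log2 values with a prior count of 2. Exact permutation tests on these enumerated all splits of the 11 rats, or all 64 or 32 sign flips. Summed CPM of listed genes and markers, and the CPM of Vwf, were relative to the raw library total, without TMM scaling. TPM used the gene model lengths in the table.

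The 2 libraries of a rat come from the same animal, and their deviations from the group means correlated at 0.348 to 0.845 in the 11 rats, so blocked values are printed where a call changed. Genes named from a list are the 2 highest and 2 lowest ipsilateral fold changes, and the 3 most like each member by r, of which 1 is not reported here. Counts per library give small counting error for members, of which the lowest count was 287, so the spread between rats limits the precision. Scripts were tested on simulated data.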

Additional observations from a re-analysis of the deposited data

Results flagged for a closer look

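In 3 of the 16 combinations of a member and a group, rat 83 lay apart from the others of its group by Dixon's Q on unlogged CPM. Q ran from 0.641 to 0.768, against a critical value of 0.625. These values hold for unlogged levels only. On the log2 scale rat 83, the next and the lowest PBBI rat had 5.50, 4.03 and 2.06 for ipsilateral Gjb6. They had 6.96, 6.35 and 5.85 for ipsilateral Maob, and 6.07, 5.47 and 5.23 for contralateral Gjb6. The combinations share libraries and are not independent, so their number is a description. Contralateral Gjb6 was 67.1 CPM in rat 83, while the next PBBI rat had 44.3. Ipsilateral Gjb6 was 45.1 CPM in rat 83, while the next PBBI rat had 16.4. Ipsilateral Maob was 125 CPM in rat 83, against 81.7 in the next. In the same ipsilateral library Vim was the lowest of the PBBI rats (248 CPM). Without TMM scaling, the 28 named reactive genes summed to 808 CPM there, against 2193 to 3770 in the other 5. The 17 named homeostatic genes summed to 5720 CPM, likewise unscaled, against 3104 to 4979 in the other 5. The low ends of both ranges, 2193 and 3104 CPM, were those of rat 85, whose TMM factor was 0.706. The cause was not tested.

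The effect of PBBI on each of the 4 members had an unadjusted exact permutation p under 0.05 for a difference between hemispheres, when per-rat differences were compared. By exact permutation the difference was 1.55 for Gfap (p = 0.0130), 2.13 for Vim (p = 0.00216), -2.04 for Gjb6 (p = 0.00433) and -0.73 for Maob (p = 0.00649), on the log2 scale and unadjusted. The ipsilateral PBBI libraries behind these values are among those in which the study called all 4 genes, so the directions are not independent evidence. In edgeR without the rat as a block, the difference between hemispheres passed for none of the 4 (adjusted p = 0.101 to 0.424), whereas with the rat as a block it passed for all 4.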

How the results depend on the processing

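Gfap and Vim passed ipsilaterally, and none of the 4 members passed contralaterally or within sham rats, under every alternative run. Calls of Gjb6 and Maob depended on the test. Ipsilaterally their log2 fold changes, past the threshold, were -1.52 and -0.74 (DESeq2), -1.24 and -0.71 (DESeq2 with prior), -2.45 and -0.97 (voom) and -1.53 and -0.75 (all 22 libraries). The difference between hemispheres passed for Vim in DESeq2 (1.95, with prior 1.64), and in voom for Gfap (1.64), Vim (2.40), Gjb6 (-2.43) and Maob (-0.93). With the replicate block it passed for Gfap (1.57, without rat 85 1.44), Vim (2.13, 2.04), Gjb6 (-2.04, -2.08) and Maob (-0.73, -0.72). Within PBBI rats the block passed Gfap (1.25, without rat 85 1.13) and Gjb6 (-1.92, -1.95), voom passed Gfap (1.35) and Gjb6 (-2.37), and all 22 libraries together passed Gjb6 (-1.53). The block changed no other call of a member. The blocked fits without rat 85 were chosen after seeing the data. DESeq2 gave Gjb6 no adjusted p within PBBI rats. Contralateral Gjb6 turned to -0.060 in voom.

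Without 1 rat at a time, ipsilateral Gjb6 ran from -2.22 to -1.33 and Maob from -0.92 to -0.67. Contralateral Gjb6 ran from -0.018 to 0.24 and Maob from -0.089 to 0.019, and Gjb6 within sham rats from -0.081 to 0.20. The difference between hemispheres ran from 1.77 to 2.21 for Vim, -2.20 to -1.45 for Gjb6 and -0.85 to -0.63 for Maob. Within PBBI rats Vim ran from 1.58 to 2.04, Gjb6 from -2.06 to -1.36 and Maob from -0.98 to -0.76. On log2 CPM the contralateral difference ran from -0.0085 to 0.2 for Gjb6 and from -0.081 to 0.0089 for Maob, and Gjb6 within sham rats from -0.084 to 0.2.

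Genes passing ipsilaterally numbered 753, and 1639 in DESeq2, 1628 with its prior, 5014 in voom, 1655 with all 22 libraries and 316 to 2186 without 1 rat (2186 without rat 85, 1158 without rat 83, 316 to 465 without any other). Contralaterally they numbered 0, against 3 in DESeq2, 1 in voom and 0 to 1 without 1 rat. In the difference between hemispheres there were 54, against 353 in DESeq2, 478 with prior, 1663 in voom, 708 with the block, 1358 with it and without rat 85, and 0 to 255 without 1 rat (255 without rat 83, 98 without rat 81, 0 to 2 without rats 88, 90 or 96 or any sham rat). Within PBBI rats there were 568, against 1535, 1531, 3695, 1354 with all 22 libraries, 1646 with the block, 3356 with it and without rat 85, and 1 to 1149 without 1 rat (1149 without rat 85, 246 without rat 81, 42 without rat 90, 6 without rat 96, 1 without rat 88). The share of calls that were higher ipsilaterally was 87.5%, and 47.9% in voom. The causes of these shifts were not tested.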

Other observations

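The summed CPM of the 28 named reactive astrocyte genes, without TMM scaling, was 1036 in rat 81 and 673 in rat 88 in contralateral PBBI cortex. These rats also had the highest contralateral Gfap and Vim. The sum was 360 to 454 in the other 4 PBBI rats, against 269 to 446 in contralateral sham cortex. The contralateral sum of the 17 named homeostatic genes, also without TMM scaling, was 7486 CPM in rat 81 and 9178 in rat 88, and 5783 to 8382 in the other 4 PBBI rats.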
